A study of Mus musculus with 2 samples.

Results

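The resting basal cells of the interfollicular epidermis, the sheet of skin between hair follicles, were described in dorsal skin of control and testosterone-treated mice. They were 3844 of the 62289 cell barcodes of both libraries that had 200 to 8000 detected genes and at most 10% of their unique molecular identifiers (UMIs, each tagging 1 captured transcript) from the mitochondrial genome. A barcode was a member where it held a UMI of at least 3 of the 8 genes Cdh13, Sox6, Il20ra, Col7a1, Adamts14, Slco2a1, Sema3c and Ccdc3, a UMI of the basal keratins Krt14 or Krt5, and no UMI of Mki67 or Top2a, which mark dividing cells, of Lgr5, which marks follicle stem cells, of Krt79, which marks the upper follicle, or of Dct, which marks melanocytes. The cells were thus chosen by their own measured UMIs, so the levels of these genes are a description of the choice and not a finding.

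Whole dorsal skin of male C3H/HeN mice was profiled by droplet-based scRNA-seq. The control group (Con) received vehicle, and the androgenetic alopecia model (TP) received 0.5 mg of testosterone propionate per day under the skin. The back skin had been shaved, treatment began at 7 weeks of age, and skin was taken at 9 weeks. Skin of 15 mice per group was pooled, digested with collagenase D and freed of red cells and debris, and each pool gave 1 library, so the comparison of TP with Con has no replicate check. The third group of the study, TP with an antibody against CXCL12, is not analysed here. All intervals below are exact 95% intervals that cover counting error only, not differences between mice, dissociations or libraries. The libraries shared 303 barcode sequences in all, 220 among passing barcodes and 2 among members.

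Basal keratinocytes sit on the basement membrane, to which hemidesmosomes anchor them through integrin α6β4 and collagen XVII, and their cytoskeleton is built of keratins 5 and 14. They are the layer in which the epidermis renews itself. A cell that leaves the layer lowers these keratins, turns on keratins 1 and 10 in the spinous layer, and later the cornified envelope proteins of the granular layer, such as loricrin, involucrin and filaggrin. Growth factors of the EGF family and the AP-1 transcription factors, dimers of FOS and JUN proteins, are well known regulators of growth and differentiation in this tissue.

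Resting basal cells made up 2.99% of passing barcodes in Con (1265 of 42244, 2.83 to 3.16%) and 12.9% in TP (2579 of 20045, 12.4 to 13.3%), a ratio of 4.30 (4.02 to 4.60). Members had a median of 2426 UMIs and 1422 genes in Con and of 4398 UMIs and 2055 genes in TP, and passing barcodes as a whole had medians of 2162 and 5166 UMIs. Because the rule asks for transcripts that a deeper barcode shows more readily, every barcode was thinned to 1000 UMIs and the rule applied again, which gave 2.84% in Con and 7.43% in TP and a ratio of 2.61 (2.41 to 2.83). Within ranges of depth the share was 0.597% in Con against 2.58% in TP from 500 to below 1000 UMIs, 3.33% against 17.4% from 2000 to below 4000, and 5.71% (3.42 to 8.88%) against 7.16% (6.13 to 8.31%) at 16000 or more, the deepest range, in which the intervals overlapped. Where an additional limit of 5% on mitochondrial UMIs was set, the ratio was 3.20. In a pooled suspension, more basal cells, fewer cells of other kinds and a different release of cells from the tissue cannot be told apart.

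**Figure D1:**
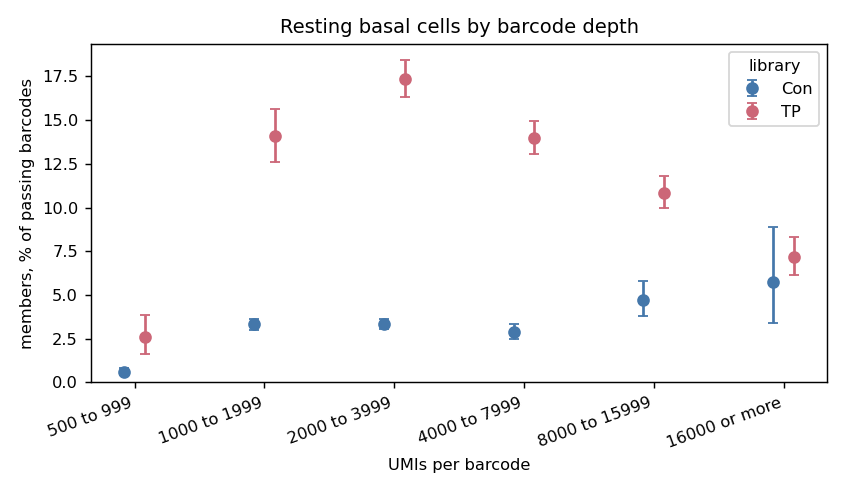
Share of passing barcodes that were resting basal cells (y axis, percent) by the number of UMIs of the barcode (x axis, ranges), in the Con library (blue) and the TP library (red), with exact 95% binomial intervals as bars. The TP share lies above the Con share in every range, and the intervals overlap only at 16000 UMIs or more.

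The exclusions set much of this ratio. Of the barcodes with at least 3 of the 8 markers and a basal keratin, 5020 in Con and 6316 in TP, a UMI of Mki67 or Top2a was present in 66.3% and 43.7%, and all exclusions together removed 74.8% and 59.2%. Without the exclusions the share was 11.9% in Con and 31.5% in TP, a ratio of 2.65. A UMI of Mki67 or Top2a also occurred in fibroblasts, in 21.4% of those of Con (median 2996.5 UMIs) and 7.91% of those of TP (median 7096 UMIs) after thinning, and in 47.8% and 29.4% without thinning, so that a single UMI of these genes was common in the Con library outside the epidermis too. The part of free RNA in the exclusions was not tested.

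As a check on the word resting, 6 other genes of dividing cells (Cdk1, Ccnb1, Cenpf, Birc5, Ube2c and Tpx2) were read in cells thinned to 1000 UMIs. At least 1 of the 6 was seen in 14.8% of Con members (12.8 to 16.9%) and 5.16% of TP members (4.34 to 6.09%), against 29.1% and 25.5% of the cells that met the rule except for a UMI of Mki67 or Top2a, called cycling here. Spinous and Lgr5 follicle cells, from which Mki67 and Top2a were barred too, gave 18.6% and 15.7% in Con and 3.37% and 4.64% in TP, with intervals that overlapped those of the members. Fibroblasts, from which these genes were not barred, gave 15.5% and 6.85%. The members lost their cells with Mki67 or Top2a by the rule, so their distance from the cycling cells follows in part from the choice. Unthinned, the members' shares were 34.2% and 18.5%.

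The label of basal cells was checked on genes outside the rule. The levels of the 15 genes most raised over the other passing barcodes in both libraries, given as counts per 1000000 UMIs of the summed cells (CPM), included several of the basement membrane zone. Col17a1, the hemidesmosomal collagen XVII, stood at 949 CPM in Con members and 180 in other barcodes, 5.26-fold higher, and at 874 and 242 CPM in TP, 3.62-fold higher. Itga6, the α6 integrin subunit, stood at 538 CPM in Con members (4.41-fold over other barcodes) and 696 CPM in TP members (3.25-fold). Krt15, a keratin of basal and bulge cells, stood at 1860 CPM (5.52-fold) and 1378 CPM (3.42-fold), while Lgr5 follicle cells held 1142 CPM in Con and, above the members, 1393 CPM in TP. They also held 556 and 559 CPM of Col17a1 and 298 and 303 CPM of Itga6. The summed level of 4 outer bulge markers was 169 CPM in Con members and 98.5 in other barcodes, and 180 and 227 CPM in TP. In the members most of this sum was Postn, and Lgr5 was barred by the rule, so it does not stand for all 4 genes. The check thus does not tell interfollicular from follicular basal cells. Lamb3, a laminin chain, Col4a6, a basement membrane collagen, and Itga2, a collagen-binding integrin subunit, were among the 15 as well. So were Slc6a4, the serotonin transporter, at 46.7 CPM (6.70-fold) and 48.4 CPM (4.24-fold), Il33, an alarmin of epithelial nuclei, at 88.7 CPM (6.58-fold) and 81.1 CPM (3.55-fold), and Il1r2, a decoy receptor for IL-1, at 145 CPM (6.92-fold) and 118 CPM (3.25-fold). Il1r2 was not particular to them, since TP fibroblasts held 279 CPM.

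**Figure D2:**
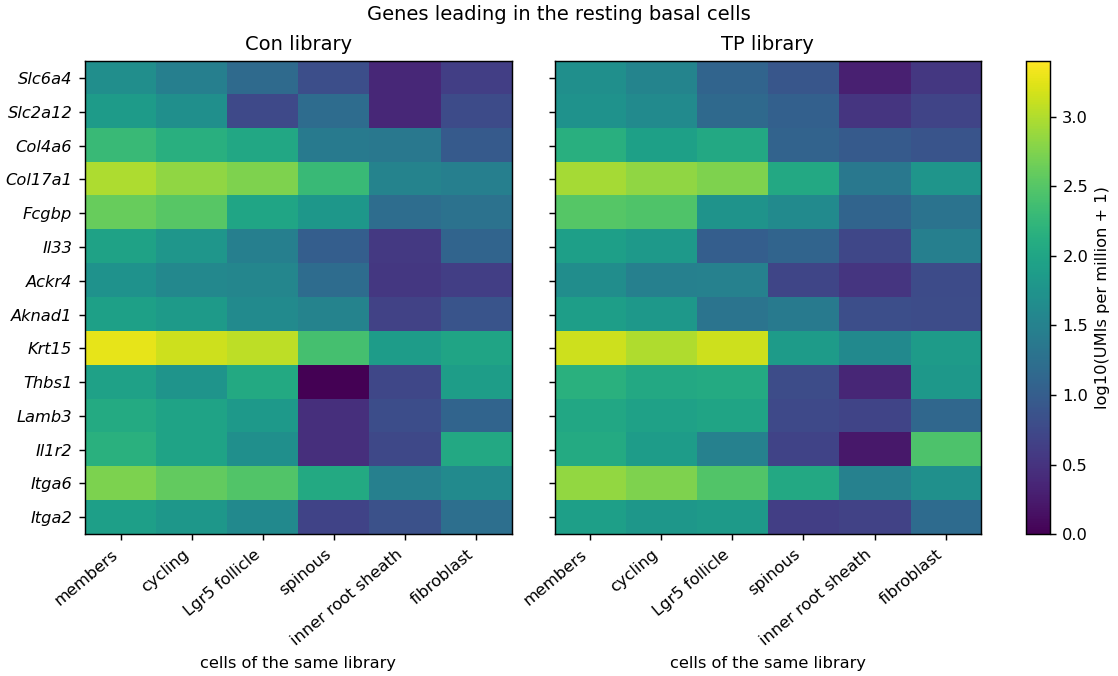
Levels of leading genes outside the rule (rows) in resting basal cells and 5 other kinds of cells (columns), in the Con library (left) and the TP library (right), as log10 of CPM plus 1 (color). The columns of resting basal and cycling cells are the brightest for most genes, and the spinous, inner root sheath and fibroblast columns are darker than the members' column, except for Il1r2 in TP fibroblasts.

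Among the genes of the rule, Cdh13, a GPI-anchored cadherin, stood at 1197 CPM in Con members and 979 CPM in TP members, and Sox6, a transcription factor, at 907 and 684 CPM. Il20ra, a receptor chain for IL-20 family cytokines, stood at 270 and 238 CPM, Col7a1, the anchoring fibril collagen, at 121 and 95.7 CPM, and Slco2a1, a prostaglandin transporter, at 109 and 88.0 CPM. Krt14 stood at 4010 and 5558 CPM and Krt5 at 2782 and 3135 CPM. The 8 markers were 3.74- to 7.43-fold higher in members than in other barcodes in either library. Cells with exactly 3 of the 8 markers were 375 in Con and 716 in TP, and their summed level of Krt15 was 1312 and 539 CPM. Cells just outside, with exactly 2 markers and otherwise the same conditions, were 487 and 942, with Krt15 at 728 and 222 CPM.

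Some members carried the transcripts of another cell type. In 85 Con members (6.72%) and 261 TP members (10.1%), the UMIs of 35 markers of fibroblasts, immune cells, endothelium, melanocytes, muscle and pericytes, Schwann cells and dermal papilla were at least as many as those of Krt14 and Krt5 together. Of the 261 in TP, 209 held more fibroblast marker UMIs than basal keratin UMIs, and their 261 barcodes had a median of 7154 UMIs. Their share was 23.6% among TP members with exactly 3 markers and 2.92% among those with 5. The summed level of 6 fibroblast markers, all detected, rose in the members from 521 to 3900 CPM. In the other 1180 Con and 2318 TP members, called keratin-led below, it was 97.9 and 173 CPM, and 3 of 6 fibroblast matrix genes tested there, Col1a1, Col1a2 and Col3a1, rose. These 3 genes are among the 35 markers that set this split. This split was chosen after the values had been seen, and it leaves no cell in which basal keratins are outnumbered. An artificial-doublet score called 55 Con and 119 TP members, and without them the share ratio was 4.28.

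Genes were compared between TP and Con on UMIs summed over cells, with 1 UMI added per library, and a gene was said to rise or fall where it differed at least 2-fold. Of 8983 genes with at least 200 UMIs in members, 291 rose (3.24%) and 74 fell (0.824%). The largest 12 rises were Myh11, C7, Tagln, Ccl8, Tnfaip6, Fgl2, C1qa, Acta2, Dgkb, Mrc1, Cp and Dab2, genes of smooth muscle, fibroblasts and macrophages among them, and 45.1 to 98.5% of their TP UMIs lay in the members led by other cells' markers. Myh11, smooth muscle myosin, held 2.25 CPM in Con and 102 in TP members, but 2.16 and 2.47 CPM in keratin-led members. In keratin-led members 8308 genes were tested, of which 70 rose (0.843%) and 81 fell (0.975%), and 68 of the 70 were among the 291. Of the calls in keratin-led members, 27 rises and 34 falls reached 200 UMIs only through the library in which they were higher, so that a gene of the same lower level and no difference would have gone untested, and counts of calls are not read as support for a list. The median gene differed by -0.09 on the log2 scale and 89.4% of genes lay within 0.5 log2 units of no difference. All levels and log2 differences that follow are those of keratin-led members unless other cells are named.

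As a measure of RNA from other cells, free or captured with the barcode, each called gene was compared with its level in fibroblasts and in inner root sheath cells of the library in which it was higher. Of the 70 genes that rose, 26 stood at least 2-fold above both and 28 were at or below the higher of the pair. Of the 81 that fell, 4 and 72 did. A gene that fibroblasts or root sheath cells express themselves is set aside by this comparison too. Immune cells were not part of it, and TP immune cells held more Socs3 (211 CPM), Ptgs2 (49.0 CPM), Dusp6 (42.8 CPM) and Tslp (35.5 CPM) than TP basal cells. The comparison was chosen after the values had been seen. The same shares over all 8308 genes tested were not computed, so the counts are not read as a result about the called genes.

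**Figure D3:**
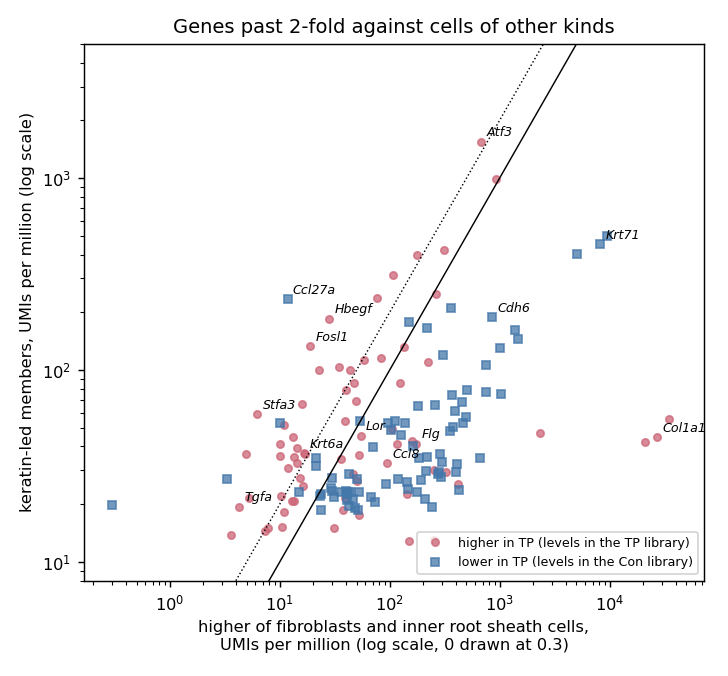
Each of the 151 genes that differed at least 2-fold between TP and Con in keratin-led resting basal cells, by its level there (y axis) and the higher of its levels in fibroblasts and inner root sheath cells (x axis), both in the library in which the gene was higher, in CPM on log scales. The solid line marks equal levels and the dotted line a 2-fold higher level in the basal cells, above which lie 26 rises, such as Fosl1 and Hbegf, and 4 falls, such as Ccl27a.

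The AP-1 component Fosl1, which encodes FRA-1, showed one of the largest rises among genes above both. The gene lies at chr19:5447698-5455938. Its level was 21.6 CPM in Con (90 UMIs) and 133 CPM in TP (1884 UMIs), a log2 difference of 2.60 (2.31 to 2.94), while TP fibroblasts held 19.0 CPM and inner root sheath cells 12.6 CPM. After thinning, 1.99% of Con and 9.27% of TP cells held a UMI (4.41 and 24.0% unthinned), against 0 of 168 Con fibroblasts, which allows a share of up to 1.79% by the count of 3 cells and 2.17% by the exact interval, and 0.609% of TP fibroblasts (1.08 and 5.43% unthinned). Of 21 AP-1 and immediate-early genes tested, 4 rose and none fell, with a median of 0.53 against -0.09 for all genes. The others were Atf3, a stress-induced ATF family member (760 to 1548 CPM, 1.03), Btg2, an antiproliferative immediate-early gene (204 to 425 CPM, 1.06), and Socs3, a feedback inhibitor of cytokine signaling (35.6 to 85.7 CPM, 1.26). In TP fibroblasts Atf3 stood at 676 CPM, Btg2 at 307 CPM and Socs3 at 124 CPM, the last above the basal cells. Fos stood at 1937 and 2603 CPM (0.43), Jun at 1477 and 1673 CPM (0.18), Junb at 394 and 613 CPM (0.64) and Egr1 at 692 and 1000 CPM (0.53), all short of 2-fold. The same list stood at 0.379% of UMIs in Con and 1.07% in TP fibroblasts, against 0.839 and 1.21% in the basal cells, and the part of tissue dissociation, which is known to induce these genes, was not tested.

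Ligands of the EGF receptor family were among the genes that rose. Of 12 genes of the pathway tested, Hbegf, Tgfa, Areg, Epgn and the feedback phosphatase Dusp6 rose and none fell, where 0.843% of all genes rose. The median of the list was 0.30 against -0.09 for all genes. As a whole the list took 0.126% of UMIs in Con and 0.129% in TP, and 0.156 and 0.241% in fibroblasts. Tgfa, Areg and Dusp6 reached the minimum of UMIs only through TP. The ligands Ereg and Btc lay under the minimum of UMIs. Hbegf, heparin-binding EGF, stood at 49.3 CPM in Con and 185 CPM in TP (1.90, 1.71 to 2.12), and at 28.3 CPM in TP fibroblasts. A UMI of Hbegf was held by 3.99% and 11.1% of thinned cells (10.2 and 29.6% unthinned), against 0 of 168 Con fibroblasts, with the same limits as for Fosl1, and 1.37% of TP fibroblasts (0.538 and 7.05% unthinned). Tgfa rose from 4.81 to 19.4 CPM (1.95, 1.36 to 2.75) on 20 and 275 UMIs. Epgn, epigen, rose from 30.8 to 69.4 CPM (1.16), and Areg, amphiregulin, from 8.66 to 26.5 CPM (1.58), but both stood at about 50 CPM in TP inner root sheath cells, with 49.4 CPM for Epgn and 50.4 for Areg, and Dusp6 stood at 20.9 CPM against 12.9 in TP fibroblasts and 42.8 in TP immune cells. The receptors did not follow, with Egfr at 405 and 349 CPM (-0.22), Erbb2 at 38.5 and 44.7 CPM (0.21) and Erbb3 at 54.8 and 57.4 CPM (0.06), and the receptor's inhibitor Errfi1 stood at 477 and 333 CPM (-0.52). Nrg1, neuregulin 1, a ligand of ERBB3 and ERBB4 outside that list, rose from 17.6 to 66.7 CPM (1.91, 1.58 to 2.29), and stood at 18.2 CPM in Con and 16.1 CPM in TP fibroblasts.

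Of 17 epidermal stress genes 7 were tested and 5 rose, of which Krt6a, Tslp, Stfa1 and Sprr1b reached the minimum of UMIs only through TP. Krt6a, the keratin of activated keratinocytes, rose from 6.01 to 36.6 CPM (2.55, 2.03 to 3.25), with 16.8 CPM in TP fibroblasts. Its partner Krt16 rose from 33.9 to 113 CPM (1.73, 1.49 to 1.99), with 58.9 CPM in TP fibroblasts, just short of a 2-fold excess over them. Tslp, a cytokine released by keratinocytes, rose from 3.37 to 15.1 CPM (2.07, 1.39 to 3.06), with 7.88 CPM in TP fibroblasts and 35.5 CPM in TP immune cells. Stfa1, a stefin, rose from 6.25 to 21.6 CPM, with 5.30 CPM in TP inner root sheath cells, and Sprr1b, a small proline-rich cornified envelope protein, from 3.85 to 21.5 CPM, below the 38.9 CPM of TP fibroblasts. Of these 5 genes, Krt6a and Stfa1 stood at least 2-fold above both kinds of cells. The single TP cell with the most UMIs of a gene held 12.5% of the TP UMIs of Krt6a, 16.4% for Tslp and 11.5% for Sprr1b. The intervals treat UMIs as independent and do not cover this. Il33 stood at 92.4 and 91.5 CPM (-0.02). Outside this list, rises at least 2-fold above fibroblasts and inner root sheath included Cstdc5 (12.5 to 99.8 CPM), a cystatin family gene, Ptgs2 (6.74 to 32.6 CPM, with 49.0 CPM in TP immune cells), which makes prostaglandins, Tiparp (105 to 313 CPM), a target of the aryl hydrocarbon receptor, and Dnajb1 (137 to 398 CPM), a heat shock protein 40. Ptgs2 reached the minimum of UMIs only through TP. Dnajb1 was the sole gene of 13 heat shock genes to rise, with Hspa1a at 186 and 120 CPM (-0.64).

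**Figure D4:**
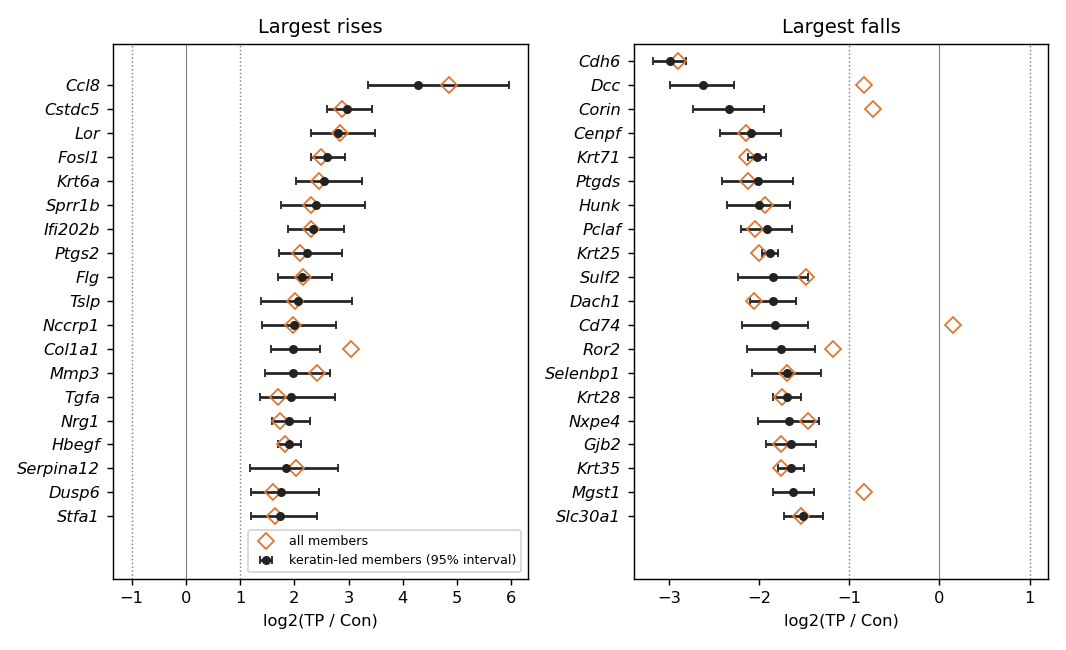
The largest rises (left) and largest falls (right) between TP and Con in keratin-led resting basal cells, as log2 ratio (x axis) with exact 95% counting intervals (bars), and the same ratio over all members (open orange diamonds). The dotted lines mark 2-fold. Fosl1, Krt6a, Nrg1 and Hbegf lie between 1.90 and 2.60. Cd74 differs between the sets, with 0.15 over all members and -1.82 in keratin-led cells. Cd74, Corin and Col1a1 are among the 35 markers that set the split, so their difference between the sets follows in part from the choice.

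A list of glucocorticoid-responsive genes gave 2 rises among 13 tested, with a median of 0.30. Of the 13, 7 were higher and 6 lower in TP (lowest -0.58), and the list took 0.354% of UMIs in Con and 0.335% in TP. Mt1 and Mt2 of this list differed by -0.50 and -0.44 over all members. Zbtb16, the PLZF transcriptional repressor, rose from 103 to 249 CPM (1.27, 1.13 to 1.42), and Fkbp5, a co-chaperone of steroid receptors, from 13.5 to 41.4 CPM (1.60, 1.22 to 2.04). Both were present in fibroblasts at like or higher levels, with 266 CPM for Zbtb16 and 117 CPM for Fkbp5 in TP fibroblasts. Klf9 stood at 71.9 and 123 CPM (0.77), Tsc22d3 at 90.9 and 112 CPM (0.30) and Nr3c1, the glucocorticoid receptor, at 146 and 141 CPM (-0.05). Of 8 androgen and steroid conversion genes tested, none passed 2-fold, with 2 higher and 6 lower in TP (median -0.04, lowest -0.89). Srd5a1, the 5α-reductase of skin, stood at 28.4 and 28.5 CPM (0.00).

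No gene tested of the adhesive machinery of the basal layer passed 2-fold, but few genes of any kind did. Over all 8308 genes tested, 0.843% rose and 0.975% fell. Lists without a call are thus near that share and are not read as results about their genes. None of 19 hemidesmosome and basement membrane genes rose or fell (median -0.11 against -0.09 for all genes, range -0.58 to 0.49). Over all members 2 of 23 rose, Nid1 (2.41) and Col4a1 (1.66). Col17a1 stood at 984 and 990 CPM (0.01, -0.04 to 0.06), Itgb4 at 205 and 210 CPM (0.03), Lamb3 at 123 and 123 CPM (0.00), and Itga6, the highest of the list's differences, at 556 and 784 CPM (0.49, 0.43 to 0.56). None of 16 desmosome and adherens junction genes (median 0.29) and none of 20 epidermal transcription factors (median 0.15) passed 2-fold, with Trp63, the master regulator of stratified epithelium, at 1082 and 1228 CPM (0.18). Krt15 stood at 1963 and 1582 CPM (-0.31). Krt14 stood at 4263 and 6402 CPM (0.59) and Krt5 at 2952 and 3610 CPM (0.29). Both are genes of the rule and of the keratin-led split, so their levels describe the choice of cells. Of 21 cholesterol synthesis genes, 20 were tested and 2 rose, among them Msmo1, a sterol oxidase (61.1 to 132 CPM, 1.11, with 136 CPM in TP inner root sheath cells), with a median of 0.34. None of the genes tested of Notch signaling (11), TGF-β and BMP signaling (18), glycolysis and hypoxia (20), NRF2 and antioxidant response (11), CDK inhibitors and cyclins D (14), MHC class I presentation (17), retinoid metabolism (6), ribosomal proteins (81), nuclear oxidative phosphorylation (75) or the mitochondrial genome (13) passed 2-fold. Of 12 clock genes 1 did, Bhlhe40 (9.14 to 28.8 CPM, 1.62), with 46.4 CPM in TP fibroblasts, and it reached the minimum only through TP. The highest difference in the TGF-β and BMP list was 0.997, just short of 2-fold. Over all members 1 of 8 retinoid genes rose, Cyp26b1 (1.47).

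Of the 81 falls, 72 were of genes that were as high or higher in fibroblasts or inner root sheath cells of Con. The share of all tested genes with such levels was not computed. All 6 tested keratins of the inner root sheath and hair shaft fell (median -1.67). Their list took 0.157% of UMIs in Con and 0.0463% in TP basal cells, and 0.157 and 0.0389% in fibroblasts. The part of RNA from other cells in these falls was not tested. Krt71, an inner root sheath keratin, was held by 41.5% of thinned Con basal cells and 37.5% of Con fibroblasts, and by 10.97% (9.72 to 12.3%) and 6.70% (4.91 to 8.89%) in TP, where the intervals did not overlap. Unthinned shares were 75.5 and 71.5% in Con and 37.3 and 35.7% in TP, where median depths were 4195 UMIs in keratin-led members and 7096 in fibroblasts. Cdh6, a cadherin, fell from 189 to 23.7 CPM (-2.99), with 856 CPM in Con inner root sheath cells. Lef1, a WNT effector, was the sole gene of 16 WNT genes tested to fall (120 to 51.0 CPM, -1.23, median of the list -0.29), with 171 CPM in Con fibroblasts. Of 11 DNA replication and mitosis genes tested, Cenpf (40.4 to 9.46 CPM, -2.09), Ube2c and Stmn1 fell, the first 2 of them tested only through their UMIs in Con, with Cenpf at 63.0 CPM in Con fibroblasts. Ackr3, a scavenging chemokine receptor (165 to 67.6 CPM, -1.29), with 219 CPM in Con fibroblasts and 5.59 CPM in Con inner root sheath cells, and Ccl27a were the genes that fell among 5 chemokine and cytokine genes tested (median -0.16). Ifi27l2a and Parp14 fell among 9 interferon-stimulated genes tested (median -0.31), and both were higher in Con fibroblasts. The 4 falls at least 2-fold above both kinds of cells were Ccl27a, Tspear, Slc4a8 and Gm12866, the last tested only through its UMIs in Con. Ccl27a, a chemokine of keratinocytes that draws T cells to skin, fell from 233 to 111 CPM (-1.07, -1.19 to -0.96), with 3.32 CPM in Con fibroblasts and 11.8 CPM in Con inner root sheath cells, and was held by 17.3% and 11.1% of thinned cells (36.0 and 29.8% unthinned).

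Spinous transcripts were present in the basal cells and higher in TP. All 22 genes tested of the suprabasal and cornified envelope list were higher in TP and 5 rose, of which Lor, Flg and Cnfn reached the minimum of UMIs only through TP. Krt10 stood at 6036 CPM in Con and 10151 CPM in TP (0.75) and Krt1 at 2799 and 5136 CPM (0.88). Lor, loricrin, rose from 6.25 to 45.6 CPM (2.81), Flg, filaggrin, from 9.14 to 41.4 CPM (2.14), and Ivl, involucrin, from 38.7 to 79.0 CPM (1.02), as did Hrnr and Cnfn. A single TP cell held 15.6% of the TP UMIs of Lor, and a single TP cell 25.6% of those of Flg. Of 7 epidermal keratins Krt2 alone rose (14.4 to 37.2 CPM, 1.34). TP fibroblasts held 54.4 CPM of Lor and 174 CPM of Flg, more than the basal cells, and the list took 0.217% of UMIs in Con and 0.657% in TP fibroblasts, against 1.98 and 3.19% in the basal cells. Krt10 was held by 64.4% of thinned Con and 84.4% of thinned TP basal cells (84.4 and 98.7% unthinned), against 47.0 and 59.2% of fibroblasts and 54.1% of Con immune cells. In immune cells the median summed share of Krt1 and Krt10 was 0.104% in Con and 0.207% in TP, against 0.0890 and 0.131% in fibroblasts.

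The summed share of Krt1 and Krt10 was spread over a wide range within the basal cells, with a median of 0.151% of a cell's UMIs in Con and 0.346% in TP and 95th percentiles of 2.20 and 3.66%. It had a lower and an upper peak. With rising share, cells per bin went from 102 to 17 and up to 36 in Con, and from 179 to 30 and up to 91 in TP. Spinous cells had medians of 3.43 and 4.06%. A limit of 0.5% was a cut through this range and not a boundary between types. In TP it lay on the falling side of the lower peak, so cells above it mix both peaks. Below it lay 884 Con and 1445 TP cells and above it 296 (25.1%) and 873 (37.7%), with 47 and 245 cells between 0.4 and 0.6%. Of fibroblasts, 1.61% in Con and 5.73% in TP lay above the limit. Cells above it were deeper, with medians of 4801 and 7042 UMIs against 2099.5 and 3316 below.

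**Figure D5:**
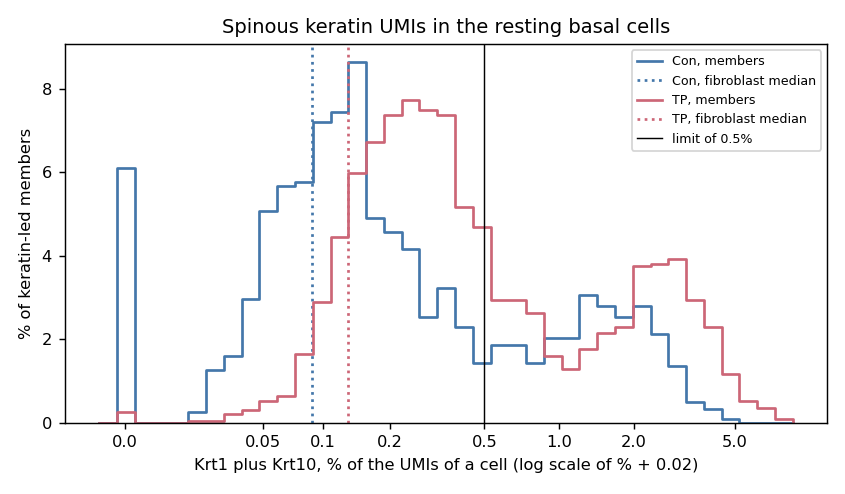
Distribution of the summed share of Krt1 and Krt10 among the UMIs of single keratin-led resting basal cells (x axis, percent, log scale of percent plus 0.02), as percent of cells (y axis), in Con (blue) and TP (red). Dotted lines mark the fibroblast medians of 0.0890% in Con and 0.131% in TP, and the black line the limit of 0.5%, above which lie 25.1% of Con and 37.7% of TP cells.

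Below the limit, Itga6, outside the rule, stood at 756 CPM in Con and 1222 CPM in TP (0.69) and Krt15 at 2523 and 2679 CPM (0.09). Of the genes of the rule, Krt14 stood at 5707 and 10132 CPM (0.83), Krt5 at 3949 and 5840 CPM (0.56) and Cdh13 at 1834 and 1873 CPM (0.03). Krt14 and Krt5 also set the keratin-led split, so the levels of these genes describe the choice of cells and are not a finding. Above the limit, Krt14 stood at 2651 and 3542 CPM (0.42) and Krt15 at 1338 and 742 CPM (-0.85). Cells above the limit had less Krt14 than those below by a factor of 0.465 in Con and 0.350 in TP, and more of the genes of differentiating cells that the split did not use. Notch3 was 3.78- and 5.17-fold higher, Grhl3, a transcription factor of barrier formation, 4.14- and 7.60-fold, Zfp750 3.50- and 4.77-fold, and Dsc1, a desmosomal cadherin of upper layers, 4.47- and 8.64-fold. The rise of Fosl1 was present on both sides, at 2.64 below and 2.93 above the limit, as was that of Hbegf, at 2.15 and 1.67. Areg differed by 3.35 below, on 5 UMIs in Con, and 0.66 above, and Epgn by 1.46 and 0.83, so that neither reached 2-fold above the limit. Zbtb16 differed by 1.55 and 1.00 and Fkbp5 by 1.74 and 1.42. Ccl27a differed by -0.63 below and -1.70 above. Whether the sides differ in their response was not tested, since each is 1 library against 1.

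The same rises were read in other cells. Fosl1 differed by 2.93 in cycling basal cells, on 148 UMIs in Con and 1657 in TP, and by 2.15 in spinous cells, on 5 and 312 UMIs. Hbegf differed by 1.98 in cycling cells (420 and 2421 UMIs) and 2.62 in spinous cells (18 and 1365), and Krt16 by 3.41 (170 and 2648) and 1.90 (36 and 1621). Con Lgr5 follicle cells and Con fibroblasts held 0 to 6 UMIs of each of these genes, and no difference is given for them. Nrg1 differed by 1.08 in cycling basal cells and by -0.29 in fibroblasts (11 and 90 UMIs), and Tiparp by 1.35 and 0.44. Ccl27a differed by -1.06 in cycling cells and -0.70 in spinous cells, the latter on 9 and 71 UMIs. Whether resting basal cells differ from these cells was not tested.

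Promoter sequences of the genes that rose or fell in keratin-led cells were searched for the AP-1 motif because an AP-1 subunit was among the genes that rose. The 250 bases before each listed start were taken from RefSeq on GRCm38.p6, the mm10 build of the counts, for 48 of the 70 rises and 55 of the 81 falls. The letters TGANTCA, which read the same on both strands, occurred in 16.7% of the rises (8 of 48), 9.09% of the falls (5 of 55), 5.65% of 6658 tested genes and 7.82% of 27025 genes in the table. The 8 rises were Lor, Sprr1b, Flg, Ivl, Mmp3, Csrnp1, F3 and Msmo1, 4 of them cornified envelope genes of chromosome 3. None of the 8 stood at least 2-fold above both fibroblasts and inner root sheath cells. Of the 8, Lor, Sprr1b, Flg, Mmp3 and Csrnp1 reached the minimum of UMIs only through TP, so the shares are not read as an enrichment. The matches of Flg and Sprr1b read TGAATCA, with A at the free letter. Windows of Ivl, Lor and Sprr1b are shown for these envelope genes, that of Il20ra for a gene of the rule with a match, and that of Krt5 for a basal keratin with none, each 5′ to 3′ in the direction of the gene with the motif in capitals. They are Krt5 at chr15:101712906-101713155 (minus strand), Il20ra at chr10:19712337-19712586 (plus), Ivl at chr3:92573736-92573985 (minus), Lor at chr3:92083143-92083392 (minus) and Sprr1b at chr3:92438780-92439029 (minus).
Krt5: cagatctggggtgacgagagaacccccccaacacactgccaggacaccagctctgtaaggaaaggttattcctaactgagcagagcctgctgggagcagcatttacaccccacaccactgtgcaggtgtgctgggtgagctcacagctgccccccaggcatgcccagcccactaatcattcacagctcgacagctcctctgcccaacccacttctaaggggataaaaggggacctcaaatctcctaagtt
Il20ra: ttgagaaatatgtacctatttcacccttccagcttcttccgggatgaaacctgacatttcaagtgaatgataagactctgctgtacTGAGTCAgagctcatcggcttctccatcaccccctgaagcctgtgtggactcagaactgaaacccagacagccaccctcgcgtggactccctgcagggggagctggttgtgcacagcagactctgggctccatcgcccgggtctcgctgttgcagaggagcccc
Ivl: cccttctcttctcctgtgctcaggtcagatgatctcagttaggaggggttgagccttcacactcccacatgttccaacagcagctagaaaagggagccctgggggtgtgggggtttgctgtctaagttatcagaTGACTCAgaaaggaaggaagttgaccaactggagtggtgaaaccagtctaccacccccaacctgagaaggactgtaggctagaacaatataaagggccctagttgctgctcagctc
Lor: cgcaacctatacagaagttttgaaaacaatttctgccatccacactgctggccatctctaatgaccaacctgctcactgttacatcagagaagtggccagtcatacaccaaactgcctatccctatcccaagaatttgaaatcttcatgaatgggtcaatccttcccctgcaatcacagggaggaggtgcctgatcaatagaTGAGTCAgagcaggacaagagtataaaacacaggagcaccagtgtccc
Sprr1b: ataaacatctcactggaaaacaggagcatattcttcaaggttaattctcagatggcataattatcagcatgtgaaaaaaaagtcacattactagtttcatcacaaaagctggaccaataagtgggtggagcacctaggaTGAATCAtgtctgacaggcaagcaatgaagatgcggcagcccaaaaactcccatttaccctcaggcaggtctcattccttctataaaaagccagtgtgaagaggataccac
The match began 164 bases before the listed start in Il20ra, 116 in Ivl, 48 in Lor and 111 in Sprr1b. Il20ra is annotated at chr10:19711673-19760053, so its window lies inside the gene and its listed start is not the outermost end. The windows of Ivl and Sprr1b also reach into the annotated span of their genes. Motifs of AP-2 and of steroid receptors were searched as well, and AP-2 was found in 27.1% of rises, 12.7% of falls and 24.0% of tested genes, the steroid receptor motif in 0 of 48 rises, 0 of 55 falls and 0.270% of tested genes. A match describes letters in this window and not a bound site.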

How the data were processed

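Droplet scRNA-seq of dorsal skin gave 1 library per group, Con and TP, each a pool of 15 mice. The deposited values are UMI counts per gene and barcode, which the authors made with Cell Ranger 8.0.1 on mm10, whole numbers over 32285 genes, not normalized, for the barcodes that Cell Ranger kept as cells. The Con library held 45709 barcodes with 130999979 UMIs and the TP library 25931 with 166929585, and members held 4451175 and 16440275 UMIs. These totals set the counting error, which the intervals cover, and nothing else.

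The study's limits on genes and mitochondrial UMIs were applied here. Members, gene lists and comparison cells were chosen with earlier results of these data known. UMIs were summed over members and scaled per 1000000 (CPM), and the log2 ratio of TP over Con used a pseudocount of 1 UMI per library and genes with at least 200 UMIs over both. Each group being 1 library, differences carry no p-value. Intervals at 95% are Clopper-Pearson for shares, exact Poisson for sums and conditional binomial for ratios. Beside a share of 0 stands the share that 3 cells would give.

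Comparison cells were defined by UMIs. Cycling cells met the rule but held Mki67 or Top2a, spinous cells had fewer than 3 of the 8 markers and at least 3% of UMIs from Krt1 and Krt10, Lgr5 follicle cells held Lgr5 and a basal keratin, and fibroblasts and inner root sheath cells had at least 1% of UMIs from 3 collagen genes or 3 root sheath keratins. Shares of cells were also computed in cells thinned to 1000 UMIs, which left out 32 Con and 23 TP members. Doublets were kept in the main values. For an alternative they were called by rewriting the study's doublet procedure with 25% artificial doublets, 30 components, the nearest 1% of the data and the highest 7.5% of barcodes.

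The genes named are those of the rule, the 15 leading genes over other barcodes, the 12 largest rises and falls without gene models, the highest and most changed genes of 29 lists, and the 20 largest rises and falls of keratin-led members. The genes at least 2-fold above fibroblasts and root sheath, and genes named for context, were chosen after their values were seen. The tools were pandas 2.3.3, numpy 2.4.6 and scipy 1.17.1 under Python 3.11.15, and edgeR 4.0.16 (R 4.3.3) gave a TMM factor. The calls were tested on Poisson counts drawn from the summed levels of all members, and the intervals on Poisson counts of a known ratio. These simulated data held no crowding of UMIs in single cells and no library effect, so neither was tested. Gene windows came from RefSeq by symbol, taking any listed start. Some genes that the rule names are not reported here.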

Additional observations from a re-analysis of the deposited data

How the results depend on the processing

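No paired analysis was possible because each group holds 1 library, and no library could be left out for the same reason. The share ratio of 4.30 was 3.20 with at most 5% mitochondrial UMIs, 2.61 after thinning to 1000 UMIs, 4.67 at 2000 to 10000 UMIs, 3.58 with Krt1 and Krt10 at most 0.5%, 3.76 with Dct not excluded and 2.65 with no exclusion genes, the last settings chosen after seeing the data, and lay between 4.14 and 4.41 under the others. The 291 genes higher in TP were 118 with at least 4 markers, 43 after thinning, 138 at 2000 to 10000 UMIs, 70 in keratin-led members, 688 at a minimum of 50 UMIs, 1338 with no filter, 156 with a pseudocount of 0.1 per 10000 and 40 among genes above other cells. The 74 lower were 115 with at least 2 markers, 47 with at least 4, 438 with no exclusion genes, 296 at 50 UMIs, 2769 with no filter, 24 with that pseudocount and 9 among genes above other cells. In the thinned setting the cells were chosen on thinned counts and their full UMIs were then summed. It is thus another set of cells and not a comparison at equal depth. Thinning and stricter rules also left fewer genes to test, 6760 after thinning against 8983. The causes of these differences were not tested. Of the calls, 79.7% were upward in the members, against 46.4% in keratin-led members, 42.6% after thinning, 49.7% with no exclusion genes and 32.6% with no filter. The TMM factor moved the median from -0.08 to 0.03. Among genes called in all members and named here, those reversed in sign were Col4a1 (-0.40 thinned, -0.75 keratin-led), Eln (-0.72 and -0.77), Csf1 (-0.069 thinned) and Tcf7l1 (-0.76 thinned). Of the 81 keratin-led falls, 5 had the opposite sign in all members, Cd74 (0.15), Igfbp5 (0.99), Wif1 (0.26), Fabp4 (0.28) and Lhfp (0.29). Cd74 is among the 35 markers that set the keratin-led split, so its change of sign follows in part from the choice. The alternatives were run on all members, so that they do not bear on how the keratin-led rises and falls depend on a setting. Within keratin-led members, shares of cells were thinned and the cells were split at 0.5% of Krt1 and Krt10. Below that limit Ccl27a (-0.63) and Ackr3 (-0.99) fell short of 2-fold, and above it they differed by -1.70 and -1.60. Fosl1 and Hbegf stayed past 2-fold on both sides. The 12 largest falls of all members stayed past 2-fold except with no exclusion genes, where 8 did, and of the 12 largest rises 6 did after thinning. Of these 12, 11 lay under the minimum of 200 UMIs in keratin-led members.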
